A study of Mus musculus with 14 samples.

Results

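The genes described are 10 mouse enzymes that modify and cross-link collagen, taken as the count rows whose Ensembl identifier carries the symbol Lox, Loxl1, Loxl2, Loxl3, Loxl4, Plod1, Plod2, P4ha1, P4ha2 or P4ha3 on build mm10. All 10 were found among the 47729 genes counted and all 10 passed the filter on low counts, which left 17926 genes for testing. Messenger RNA was sequenced from whole kidney in 14 libraries. The groups are named as follows: SMOC2_UUO, 4 libraries labelled SMOC2 transgenic after 7 days of unilateral ureteral obstruction (UUO, closure of the ureter of one kidney, used as a model of kidney fibrosis); SMOC2_normal, 3 libraries labelled SMOC2 transgenic with no treatment; WT_UUO, 4 wild-type libraries after the same 7 days; and WT_normal, 3 wild-type libraries with no treatment. Another label, on treatment, speaks of folic acid in male Balb/c mice and goes against these, so strain and sex are left unstated. Age, the transgene's promoter and any pooling of animals were not given in the sources used here. No label ties a library to an animal, and the p-values then measure only how these libraries spread, which can be technical.

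Collagen chains are hydroxylated inside the endoplasmic reticulum before they leave the cell. Prolyl 4-hydroxylases, tetramers of a catalytic alpha subunit (P4ha1, P4ha2 or P4ha3) and the shared beta subunit P4hb, make the 4-hydroxyproline that keeps the triple helix stable, and lysyl hydroxylases (Plod1, Plod2 and Plod3) make hydroxylysine. Outside the cell the copper-dependent lysyl oxidases (Lox and Loxl1 to Loxl4) oxidize lysine and hydroxylysine of collagen and elastin to aldehydes, which then form the covalent cross-links that stiffen scar tissue.

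Total counts per library were 19483994 to 30033405. Levels are in CPM, which sets each count against the size of its library, with sizes scaled by trimmed mean of M-values using factors of 1.13 to 1.20 in the 8 UUO libraries and 0.80 to 0.86 in the 6 normal ones. Where genes are compared with each other, CPM is divided by the length of their exons in kilobases (CPM per kb). Markers of kidney tubules were present in every library: 8 proximal tubule markers summed to 1933 to 2651 CPM in SMOC2_UUO, 15257 to 19123 CPM in SMOC2_normal, 1206 to 3107 CPM in WT_UUO and 13748 to 17069 CPM in WT_normal libraries. Smoc2 itself, the gene of the labelled transgene, was at 124, 89.9, 83.9 and 87.1 CPM in SMOC2_UUO, against 150.4, 131, 158 and 148 CPM in WT_UUO libraries, and at 27.8, 26.9 and 10.6 CPM in SMOC2_normal, against 12.6, 19.7 and 43.3 CPM in WT_normal libraries. All 4 SMOC2_UUO libraries were thus below all 4 WT_UUO libraries, and neither difference passed the test (log2 fold change -0.61, adjusted p = 0.3886, and -0.22, adjusted p = 0.8502). The counts do not show an excess of Smoc2 in the libraries labelled transgenic, so every genotype comparison here is between labels.

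The promoters of P4ha1 and P4ha2 are shown because these 2 alpha subunits moved in opposite directions after UUO, and both genes are textbook targets of the hypoxia-inducible factors. Each sequence is the 250 bases before the RefSeq gene start on build GRCm38.p6 (mm10), plus strand, at chr10:59323046-59323295 for P4ha1 and chr11:54100674-54100923 for P4ha2. GENCODE M21, from which the gene positions below are taken, also holds a P4ha2 transcript that starts farther upstream, and the P4ha2 window lies in the first intron of that transcript. Capitals mark the motifs ACGTG and GCGTG on either strand, the core letters of the hypoxia response element.
P4ha1: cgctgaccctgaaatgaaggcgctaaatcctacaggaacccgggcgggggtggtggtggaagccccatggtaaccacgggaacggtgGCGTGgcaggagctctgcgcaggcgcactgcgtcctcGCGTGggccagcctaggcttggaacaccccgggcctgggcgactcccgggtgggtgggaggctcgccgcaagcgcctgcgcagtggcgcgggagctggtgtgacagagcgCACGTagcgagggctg
P4ha2: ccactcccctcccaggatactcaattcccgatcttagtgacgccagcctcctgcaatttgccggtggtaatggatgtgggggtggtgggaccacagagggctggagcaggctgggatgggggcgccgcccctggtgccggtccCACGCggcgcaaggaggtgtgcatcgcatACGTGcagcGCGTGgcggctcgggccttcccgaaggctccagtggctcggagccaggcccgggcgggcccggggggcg
Both windows held 3 matches, starting 163, 126 and 16 bases before the gene start in P4ha1 and 107, 78 and 69 bases before it in P4ha2. Of 32851 windows of the same length in the table, 38.6% held at least 1 match and 6.58% held 3 or more. The table covers 5 of the 10 genes, and the other 3 windows held 1 match (Plod1), 1 match (Loxl4) and 0 matches (P4ha3).

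After UUO, transcripts of the lysyl oxidases Lox, Loxl1, Loxl2 and Loxl3 were higher in kidneys of both genotype labels. Those of the alpha subunits divided, with P4ha2 higher and P4ha1 lower. P4ha3 was also higher, but on few counts, and in wild type its libraries overlapped and the call was lost under several alternatives. In SMOC2_UUO over SMOC2_normal, 8 of the 10 genes rose and 1 fell, where 62.8% of all genes tested changed, 32.5% rising and 30.4% falling. In WT_UUO over WT_normal, 6 rose and 1 fell, where 61.1% of all genes tested changed, 31.3% rising and 29.8% falling. The median log2 fold change of the 10 genes was 1.96 in SMOC2_UUO over SMOC2_normal, against 0.04 over all genes tested, and 1.20 in WT_UUO over WT_normal, against 0.05 over all genes tested. Tests are edgeR's quasi-likelihood test with Benjamini-Hochberg adjustment over all genes, and a gene is said to rise, fall or change at an adjusted p under 0.05. The SE and 95% interval of a fold change were computed back from the statistic of that test. They are approximate and carry no information beyond the fold change and its p-value. Tissue RNA cannot tell more cells of a type from more RNA per cell.

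**Figure D1:**
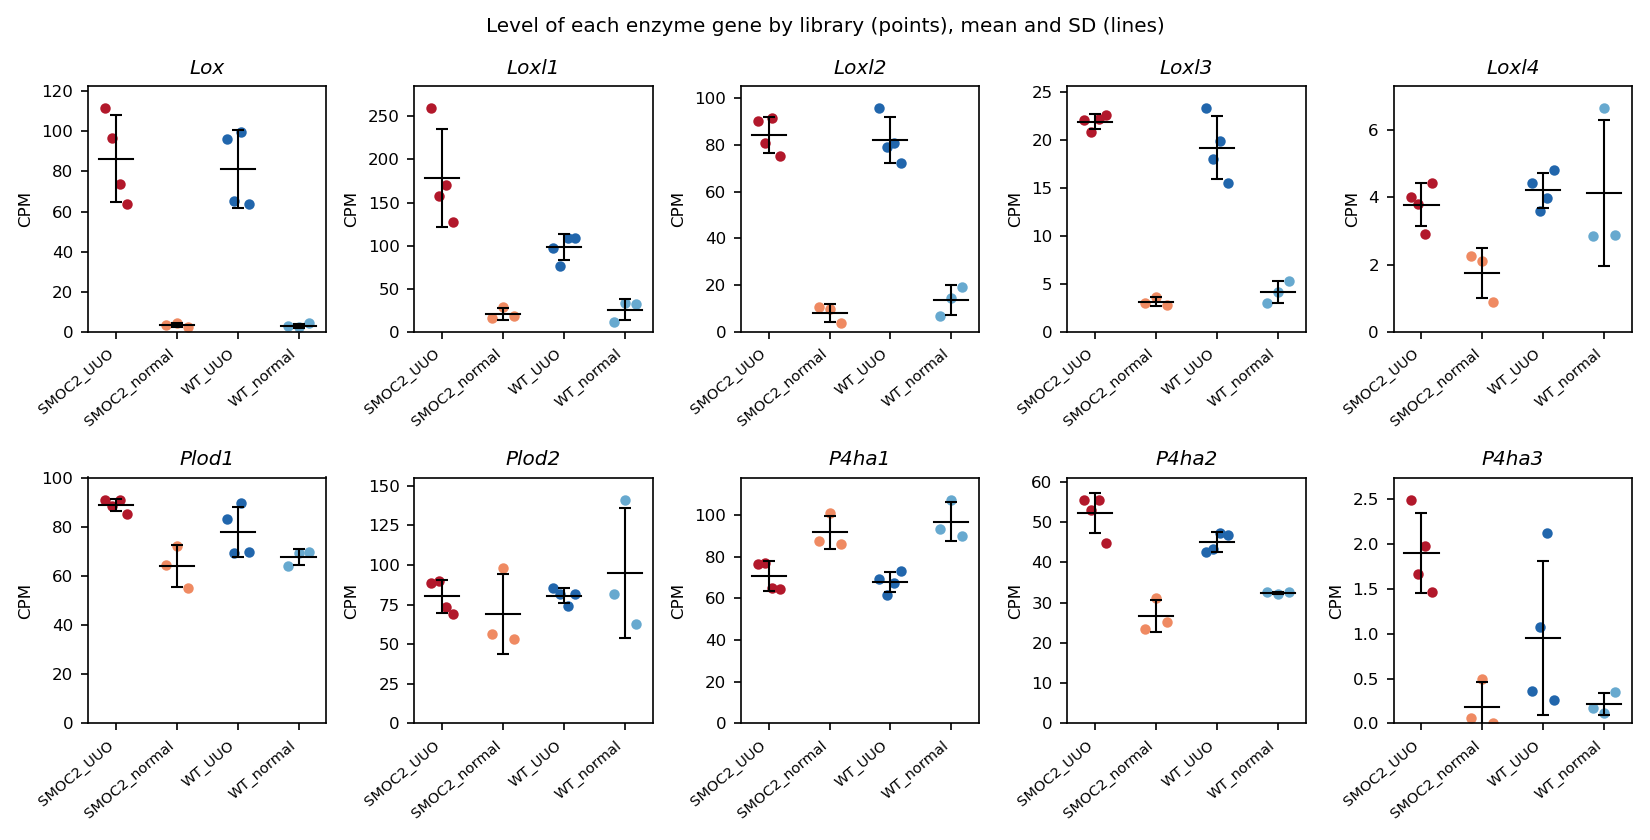
Level of each of the 10 enzyme genes in CPM (vertical axes, linear, each gene on its own scale) in SMOC2_UUO, SMOC2_normal, WT_UUO and WT_normal libraries, with points for libraries and bars for the mean ± SD. Lox, Loxl1, Loxl2 and Loxl3 sit higher in every UUO library than in any normal library, and P4ha1 sits lower in every UUO library than in any normal one.

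Lox, the founding lysyl oxidase (ENSMUSG00000024529, chr18:52516067-52529867, minus strand), had the largest fold change of the 10 genes. It was at 111, 96.6, 73.8 and 63.9 CPM in SMOC2_UUO, against 3.38, 4.49 and 2.55 CPM in SMOC2_normal libraries. In WT_UUO libraries it was at 96.2, 65.2, 99.9 and 64.0 CPM, against 2.82, 2.29 and 4.25 CPM in WT_normal libraries. The groups lay far apart (every UUO library above every normal one held for 32.6% of all genes under the SMOC2 label and 31.3% in wild type), with the lowest UUO library more than an order of magnitude above the highest normal one under either label. The log2 fold change was 4.64 (SE 0.299, adjusted p = 2.97e-08) in SMOC2_UUO over SMOC2_normal and 4.68 (SE 0.297, adjusted p = 3.09e-08) in WT_UUO over WT_normal.

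Loxl1, which acts mainly on elastic fibres (ENSMUSG00000032334, chr9:58287738-58313186, minus strand), was the most abundant lysyl oxidase in all 4 groups. It was at 259, 157, 170.3 and 128 CPM in SMOC2_UUO, against 15.8, 29.1 and 18.4 CPM in SMOC2_normal libraries. Wild-type kidneys gave 97.0, 76.9, 109 and 109 CPM in WT_UUO, against 11.9, 34.1 and 31.9 CPM in WT_normal libraries. Neither pair of groups overlapped, and SMOC2_UUO replicate 1 held the highest value of the 14. Loxl1 rose by 3.08 on the log2 scale (SE 0.358, adjusted p = 4.3e-06) in SMOC2_UUO over SMOC2_normal and by 1.92 (SE 0.338, adjusted p = 0.000214) in WT_UUO over WT_normal.

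Loxl2, an oxidase of basement membrane collagen IV among other substrates (ENSMUSG00000034205, chr14:69609068-69695834, plus strand), was at 90.0, 80.6, 91.3 and 75.2 CPM in SMOC2_UUO, against 10.8, 9.60 and 3.75 CPM in SMOC2_normal libraries. It was at 95.6, 79.1, 80.8 and 72.4 CPM in WT_UUO, against 6.66, 14.5 and 19.4 CPM in WT_normal libraries. The UUO libraries formed a narrow band under both labels, whereas the normal libraries spread widely. The rise was 3.40 on the log2 scale (SE 0.350, adjusted p = 1.4e-06) for the SMOC2 label and 2.60 (SE 0.329, adjusted p = 1.06e-05) for wild type.

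Loxl3, an oxidase needed in mouse for palate and spine development (ENSMUSG00000000693, chr6:83034173-83052562, plus strand), was at 22.1, 20.9, 22.2 and 22.6 CPM in SMOC2_UUO, against 3.01, 3.66 and 2.81 CPM in SMOC2_normal libraries. Its WT_UUO libraries held 23.3, 18.1, 19.9 and 15.6 CPM, against 2.998, 4.14 and 5.30 CPM in WT_normal libraries. No UUO library came near a normal one. Loxl3 rose by 2.80 on the log2 scale (SE 0.193, adjusted p = 4.48e-08) in SMOC2_UUO over SMOC2_normal and by 2.21 (SE 0.184, adjusted p = 2.34e-07) in WT_UUO over WT_normal. Its exons share 535 bases with Htra2 on the opposite strand, and the strand setting of the counting is not known. Htra2, a mitochondrial protease, averaged 26.7 ± 2.19 CPM in SMOC2_UUO (SD, n = 4) and 20.1 ± 1.22 CPM in SMOC2_normal (SD, n = 3), and 23.6 ± 2.22 CPM in WT_UUO (SD, n = 4) and 15.3 ± 0.0703 CPM in WT_normal (SD, n = 3).

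Loxl4, the least abundant lysyl oxidase of UUO kidneys (ENSMUSG00000025185, chr19:42593982-42612813, minus strand), did not follow the others under both labels. It was at 4.01, 3.804, 2.90 and 4.42 CPM in SMOC2_UUO, against 2.25, 2.11 and 0.885 CPM in SMOC2_normal libraries, with no overlap. In wild type it was at 4.42, 3.60, 3.996 and 4.83 CPM in WT_UUO, against 2.87, 6.65 and 2.88 CPM in WT_normal libraries, where replicate 2 of the normal kidneys was the highest of all 14 libraries. Loxl4 rose by 1.12 on the log2 scale (SE 0.349, adjusted p = 0.0121) in SMOC2_UUO over SMOC2_normal, and this call was lost without SMOC2_normal replicate 4 (0.79, adjusted p = 0.0613). In WT_UUO over WT_normal the log2 fold change was 0.04 (SE 0.322, adjusted p = 0.9291).

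**Figure D2:**
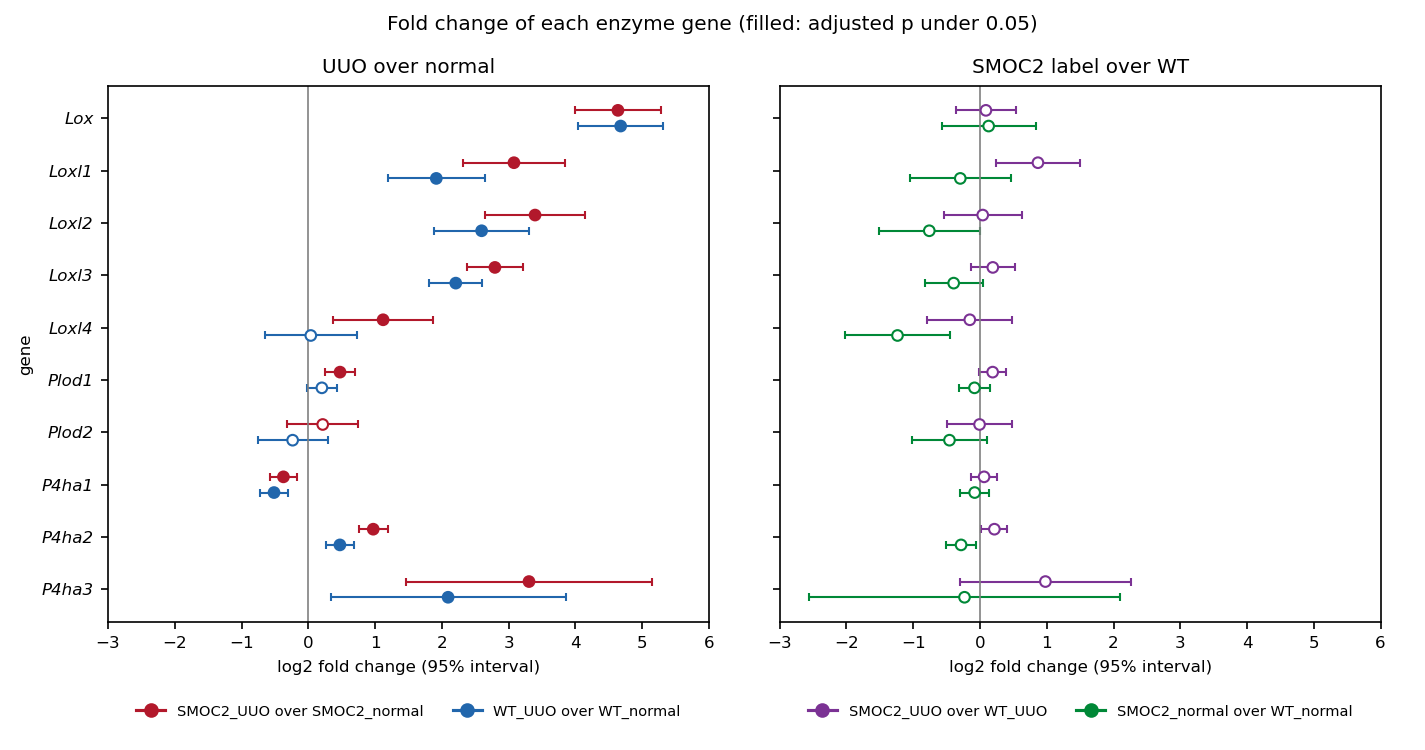
Log2 fold changes of the 10 genes with 95% intervals: UUO over normal for each genotype label (left) and SMOC2 label over WT for each state (right), with filled points where the adjusted p is under 0.05. Lox lies near 4.64 and 4.68 on the left, P4ha1 lies below 0, and no point on the right is filled.

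Of the lysyl hydroxylases, Plod1, which hydroxylates helical lysines (ENSMUSG00000019055, chr4:147909753-147936767, minus strand), was at 91.0, 88.5, 90.8 and 85.4 CPM in SMOC2_UUO, against 64.4, 72.2 and 55.3 CPM in SMOC2_normal libraries. Its wild-type values were 83.1, 69.3, 89.8 and 69.7 CPM in WT_UUO, against 64.1, 69.4 and 69.8 CPM in WT_normal libraries. The groups were apart under the SMOC2 label and overlapped in wild type. Plod1 rose by 0.48 on the log2 scale (SE 0.104, adjusted p = 0.00117) in SMOC2_UUO over SMOC2_normal, while the wild-type value was 0.20 (SE 0.103, adjusted p = 0.1036). The wild-type value passed the threshold with upper-quartile scaling (0.32, adjusted p = 0.0230) and without WT_UUO replicate 2 (0.27, adjusted p = 0.0421).

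Plod2, which hydroxylates the telopeptide lysines that give the hydroxylysine type of cross-link (ENSMUSG00000032374, chr9:92542223-92608428, plus strand), did not pass the test in any comparison. It was at 88.7, 89.9, 73.6 and 69.0 CPM in SMOC2_UUO, against 56.2, 98.2 and 53.1 CPM in SMOC2_normal libraries. It was at 85.5, 81.8, 73.9 and 81.6 CPM in WT_UUO, against 81.6, 141 and 62.5 CPM in WT_normal libraries. The normal libraries ranged more widely than the UUO ones and enclosed them under both labels. Its log2 fold change was 0.22 (95% interval -0.32 to 0.75, adjusted p = 0.4656) for the SMOC2 label and -0.23 (95% interval -0.76 to 0.29, adjusted p = 0.4258) for wild type. Plod3, the lysyl hydroxylase outside the 10 genes, which also glycosylates hydroxylysine, rose by 0.71 (SE 0.0972) and 0.58 (SE 0.0967) in the same comparisons and was named after its values were seen.

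P4ha1, the main prolyl 4-hydroxylase alpha subunit of most tissues (ENSMUSG00000019916, chr10:59323296-59373304, plus strand), fell under both labels. It was at 76.5, 77.3, 64.9 and 64.5 CPM in SMOC2_UUO, against 87.7, 101 and 86.4 CPM in SMOC2_normal libraries. It was at 69.4, 61.5, 67.4 and 73.4 CPM in WT_UUO, against 93.5, 107 and 90.0 CPM in WT_normal libraries. Every UUO library lay below every normal one of its label, as held for 30.1% of all genes under the SMOC2 label and 29.5% in wild type. The log2 fold change was -0.37 (SE 0.0961, adjusted p = 0.00379) in SMOC2_UUO over SMOC2_normal and -0.51 (SE 0.0958, adjusted p = 0.000341) in WT_UUO over WT_normal. Upper-quartile scaling moved the median of all genes to 0.15 and 0.16, against 0.04 and 0.05 with the trimmed mean, and P4ha1 then stood at -0.26 and -0.40 and still passed the test.

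P4ha2, an alpha subunit abundant in cartilage and bone (ENSMUSG00000018906, chr11:54100095-54131665, plus strand), moved the other way. It was at 55.5, 53.1, 55.4 and 44.9 CPM in SMOC2_UUO, against 23.5, 31.1 and 25.3 CPM in SMOC2_normal libraries. It was at 42.6, 43.3, 47.4 and 46.7 CPM in WT_UUO, against 32.6, 32.1 and 32.5 CPM in WT_normal libraries. Again no groups overlapped between UUO and normal. P4ha2 rose by 0.97 on the log2 scale (SE 0.102, adjusted p = 1.63e-06) in SMOC2_UUO over SMOC2_normal and by 0.47 (SE 0.0998, adjusted p = 0.000918) in WT_UUO over WT_normal.

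P4ha3, the rarest alpha subunit (ENSMUSG00000051048, chr7:100285520-100319699, plus strand), rested on few counts. SMOC2_UUO libraries held 80, 42, 56 and 36 counts, against 1, 9 and 0 counts in SMOC2_normal libraries. WT_UUO libraries held 10, 32, 60 and 6 counts, against 4, 2 and 9 counts in WT_normal libraries. The groups were apart under the SMOC2 label and overlapped in wild type, where WT_UUO replicates 1 and 4 lay near the normal libraries. P4ha3 rose by 3.31 on the log2 scale (SE 0.858, adjusted p = 0.00399) in SMOC2_UUO over SMOC2_normal, with 5.83 without SMOC2_normal replicate 3 and 2.70 without SMOC2_normal replicate 4. It rose by 2.09 (SE 0.819, adjusted p = 0.0390) in WT_UUO over WT_normal, a call lost without WT_normal replicate 1 (adjusted p = 0.1085), WT_normal replicate 2 (adjusted p = 0.1127), WT_UUO replicate 2 (adjusted p = 0.0619) or WT_UUO replicate 3 (1.35, adjusted p = 0.1495), with limma-voom (adjusted p = 0.1061) and in a fit of the compared libraries alone (adjusted p = 0.05495).

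Scaled by exon length, the order of the 10 genes differed between UUO and normal kidneys. In SMOC2_UUO libraries Loxl1 led at 54.2 ± 17.2 CPM per kb (SD, n = 4), with no overlap with the next gene. Lox (18.1), P4ha1 (17.2), Loxl2 (15.6), Plod2 (14.9) and Plod1 (13.1 CPM per kb) followed as a block in which each neighbouring pair overlapped, and then came P4ha2 (8.37), Loxl3 (4.77), Loxl4 (0.898) and P4ha3 (0.606 CPM per kb). In SMOC2_normal libraries P4ha1 led at 22.3 ± 1.96 CPM per kb (SD, n = 3), without overlap with Plod2 (12.8), followed by Plod1 (9.46), Loxl1 (6.40), P4ha2 (4.26), Loxl2 (1.49), Lox (0.727), Loxl3 (0.686), Loxl4 (0.415) and P4ha3 (0.0598 CPM per kb). Lox was second in SMOC2_UUO libraries and among the 4 lowest genes in SMOC2_normal ones.

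Wild-type libraries gave much the same order. In WT_UUO libraries Loxl1 led at 29.7 ± 4.57 CPM per kb (SD, n = 4), again without overlap with the next gene. Lox (17.0), P4ha1 (16.5), Loxl2 (15.2) and Plod2 (14.97 CPM per kb) overlapped as neighbours, followed by Plod1 (11.5), P4ha2 (7.21), Loxl3 (4.18), Loxl4 (0.9996) and P4ha3 (0.304 CPM per kb), each without overlap with the gene above. In WT_normal libraries P4ha1 led at 23.6 ± 2.23 CPM per kb (SD, n = 3) and overlapped Plod2 (17.6), followed by Plod1 (10.01), Loxl1 (7.88), P4ha2 (5.19), Loxl2 (2.50), Loxl4 (0.981), Loxl3 (0.900), Lox (0.653) and P4ha3 (0.0679 CPM per kb). Lox, Loxl3 and Loxl4 overlapped as neighbours there. This order depends on the length used, which for Plod1, Plod2 and P4ha2 is shorter in the longest transcript than over all exons. With the longest transcript, Plod2 and Plod1 stood at 21.9 and 21.7 CPM per kb in SMOC2_UUO, above Lox at 18.2, and at 22.03 and 19.03 CPM per kb in WT_UUO, above Lox at 17.2. Loxl1 led both UUO groups under either length, but then overlapped Plod2 in WT_UUO. In WT_normal Plod2 (25.97 ± 11.2 CPM per kb, SD, n = 3) then stood above P4ha1 (23.98 ± 2.27 CPM per kb, SD, n = 3), with overlap, and in SMOC2_normal P4ha1 (22.7) then overlapped Plod2 (18.9 CPM per kb). Lox was among the 4 lowest genes of both normal groups under either length.

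The make-up of each enzyme family was then taken as the share of each gene in its family's summed CPM per kb, so that a change common to a whole family drops out. Shares were tested by an exact permutation of UUO and normal within each genotype label, two-sided over 1225 arrangements, which can give no p below 0.000816, with Benjamini-Hochberg adjustment over 9 shares. The 5 lysyl oxidases together averaged 93.5 ± 22.1 CPM per kb in SMOC2_UUO (SD, n = 4) and 9.72 ± 2.75 in SMOC2_normal (SD, n = 3), and 67.1 ± 8.40 in WT_UUO (SD, n = 4) and 12.9 ± 5.33 in WT_normal (SD, n = 3). Within that sum the share of Lox was 19.4% in SMOC2_UUO and 7.49% in SMOC2_normal, and 25.2% in WT_UUO and 5.76% in WT_normal. The Lox share was 15.6 percentage points higher in UUO than in normal libraries averaged over the labels (exact permutation p = 0.000816, adjusted 0.00184), and no UUO library overlapped a normal one.

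Loxl1 and Loxl4 held smaller shares of the lysyl oxidase sum in UUO kidneys, although Loxl1 itself had risen. The Loxl1 share was 57.2% in SMOC2_UUO and 65.7% in SMOC2_normal, and 44.3% in WT_UUO and 59.5% in WT_normal, a difference of -11.8 percentage points (exact permutation p = 0.00735, adjusted 0.011). SMOC2_normal replicate 1, at 55.2%, lay within the range of the SMOC2_UUO libraries. The Loxl4 share was 1.004% in SMOC2_UUO and 4.27% in SMOC2_normal, and 1.502% in WT_UUO and 8.07% in WT_normal, a difference of -4.92 percentage points (exact permutation p = 0.000816, adjusted 0.00184). The Loxl3 share differed by -1.59 percentage points (exact permutation p = 0.0376, adjusted 0.0483), a call lost when any of 9 libraries was left out and with the longest transcript as the length. The Loxl2 share differed by 2.70 percentage points and did not pass (exact permutation p = 0.23, adjusted 0.23), though it passed without SMOC2_normal replicate 1 (4.62 percentage points, adjusted 0.0269).

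**Figure D3:**
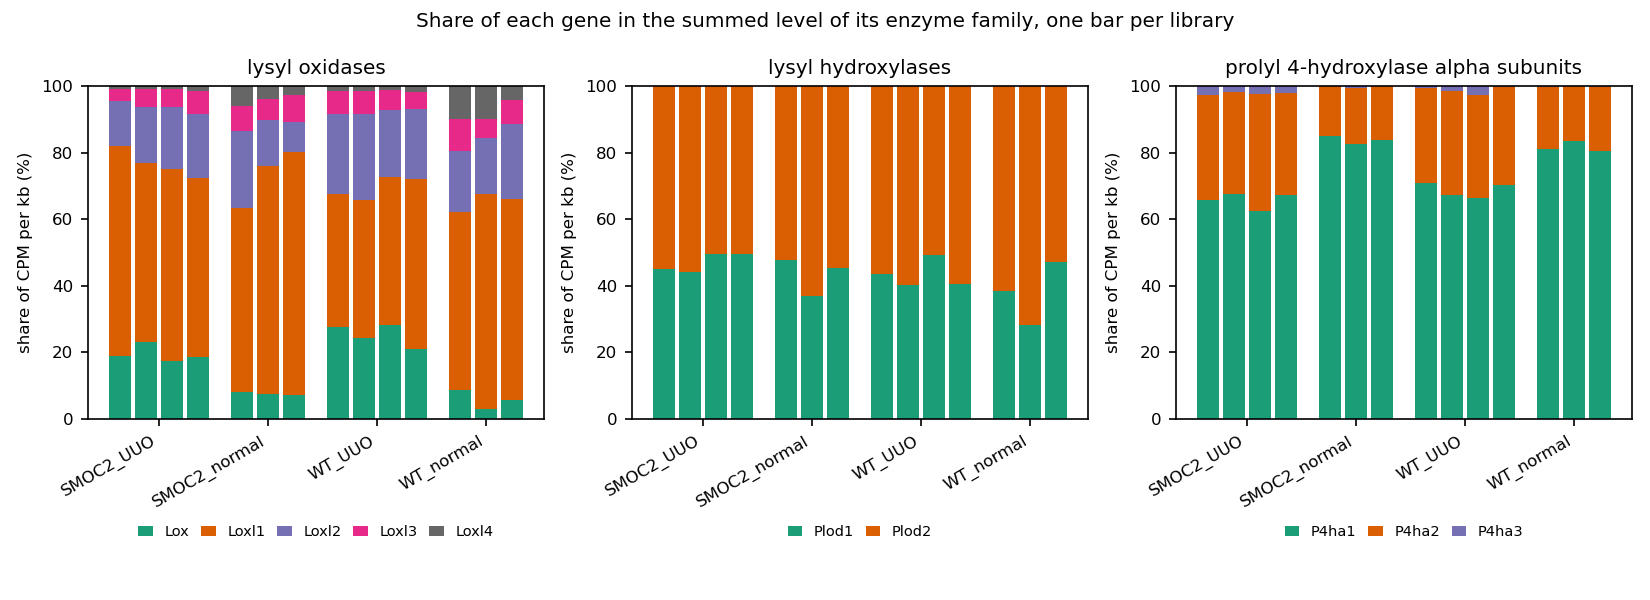
Share of each gene in the summed CPM per kb of its enzyme family (percent, linear axis) in SMOC2_UUO, SMOC2_normal, WT_UUO and WT_normal libraries. The Lox share is 19.4% and 25.2% in the UUO groups and 7.49% and 5.76% in the normal groups, and P4ha2 takes a larger part of the alpha subunits in UUO.

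The alpha subunit sum differed far less between UUO and normal kidneys than the lysyl oxidase sum did, while the shares of P4ha1 and P4ha2 differed without overlap. Together they were at 26.2 ± 2.31 CPM per kb in SMOC2_UUO (SD, n = 4) and 26.6 ± 2.66 in SMOC2_normal (SD, n = 3), and at 24.0 ± 1.37 in WT_UUO (SD, n = 4) and 28.8 ± 2.16 in WT_normal (SD, n = 3). The libraries overlapped under the SMOC2 label, and those of WT_UUO lay below those of WT_normal. With the longest transcript as length the mean sum was instead higher in SMOC2_UUO (35.4 ± 3.04, SD, n = 4) than in SMOC2_normal (31.5 ± 3.37, SD, n = 3). The libraries then overlapped under both labels, and the sums were not tested. P4ha1 made up 65.7% of the sum in SMOC2_UUO and 83.8% in SMOC2_normal, and 68.7% in WT_UUO and 81.7% in WT_normal, a difference of -15.5 percentage points (exact permutation p = 0.000816, adjusted 0.00184). P4ha2 made up 32.0% in SMOC2_UUO and 16.0% in SMOC2_normal, and 30.04% in WT_UUO and 18.1% in WT_normal, a difference of 13.98 percentage points (exact permutation p = 0.000816, adjusted 0.00184). For both genes all 8 UUO libraries were apart from all 6 normal ones, and the 2 shares mirror each other because P4ha3 holds little of the sum. The levels of these shares depend on the length: with the longest transcript P4ha2 made up 48.2% in SMOC2_UUO and 27.6% in SMOC2_normal, and 46.1% in WT_UUO and 30.6% in WT_normal, and P4ha1 made up 49.5%, 72.2%, 52.7% and 69.1% of the sum in the same groups. Both differences kept their direction and their call.

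P4ha3 held 2.30% of the alpha subunit sum in SMOC2_UUO and 0.205% in SMOC2_normal, and 1.27% in WT_UUO and 0.242% in WT_normal, a difference of 1.56 percentage points (exact permutation p = 0.00245, adjusted 0.00441). Its libraries overlapped in wild type, where WT_UUO replicate 4 (0.322%) lay below WT_normal replicate 3 (0.411%). In the lysyl hydroxylase pair the Plod2 share was 53.0% in SMOC2_UUO and 56.6% in SMOC2_normal, and 56.6% in WT_UUO and 62.1% in WT_normal. Its difference of -4.60 percentage points did not pass the threshold (exact permutation p = 0.148, adjusted 0.166) but passed it without WT_normal replicate 3 (-6.89 percentage points, adjusted 0.0367).

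Between genotype labels, none of the 10 genes passed the test in either state. In SMOC2_UUO over WT_UUO edgeR called 0 of the 10, where 0.831% of all genes tested were called (0.558% higher and 0.273% lower), and DESeq2 and limma-voom also called 0. At an unadjusted p under 0.05, 2 of the 10 were higher and 0 lower, where 15.2% of all genes lay under that value. These were Loxl1, whose 4 SMOC2_UUO libraries all lay above the 4 WT_UUO libraries (log2 fold change 0.87, 95% interval 0.24 to 1.49, adjusted p = 0.1689), and P4ha2, whose libraries overlapped (0.22, 95% interval 0.02 to 0.41, adjusted p = 0.2738). Of all genes tested, 5.42% had every SMOC2_UUO library above every WT_UUO library and 4.43% had every one below. The intervals of the other genes show what the libraries could not distinguish: Lox was at 0.09 (95% interval -0.36 to 0.54), Loxl2 at 0.04 (-0.54 to 0.62), Plod2 at -0.01 (-0.49 to 0.48) and P4ha3 at 0.98 (-0.30 to 2.26).

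In SMOC2_normal over WT_normal edgeR again called 0 of the 10, where 0.0279% of all genes tested were called (0.0223% higher and 0.00558% lower), and DESeq2 and limma-voom called 0. At an unadjusted p under 0.05, 0 were higher and 3 lower, where 12.8% of all genes lay under that value. Loxl4 differed by -1.24 on the log2 scale (95% interval -2.03 to -0.44, adjusted p = 0.2671), with all 3 SMOC2_normal libraries below all 3 WT_normal ones, as they were for P4ha2 (-0.28, 95% interval -0.51 to -0.05, adjusted p = 0.3209). The remaining one was Loxl2 (-0.76, 95% interval -1.52 to -0.0013, adjusted p = 0.3893), whose libraries overlapped. Of all genes tested, 8.01% had every SMOC2_normal library below every WT_normal library and 8.84% had every one above.

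The interaction asks whether the response to UUO differed between the labels, and edgeR called 0 of the 10 and 0 of all genes tested (0%). DESeq2 and limma-voom called 0 of the 10. At an unadjusted p under 0.05, 4 of the 10 were higher and 0 lower, where 6.44% of all genes lay under that value. These were P4ha2 (0.50, adjusted p = 0.5932), Loxl1 (1.16), Loxl3 (0.59) and Loxl4 (1.08), on the log2 scale as the SMOC2 response minus the WT response. The value was above 0 for 9 of the 10, where it was for 51.4% of all genes, and all these values come from the same libraries. For Loxl4 the labels differed more in normal kidneys (-1.24) than in UUO kidneys (-0.15). With 0 called, a larger rise under the SMOC2 label is not shown for any of the 10 genes.

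Other genes of collagen folding in the endoplasmic reticulum moved in both directions. Of 16 listed, 9 rose and 4 fell in SMOC2_UUO over SMOC2_normal, and 9 rose and 4 fell in WT_UUO over WT_normal. Among all genes tested, 32.5% rose and 30.4% fell under the SMOC2 label, and 31.3% rose and 29.8% fell in wild type. Fkbp10, a prolyl isomerase needed for telopeptide lysine hydroxylation, rose by 3.07 (SE 0.250) and 2.68 (SE 0.241) on the log2 scale. Serpinh1, the collagen chaperone HSP47, rose by 1.94 (SE 0.158) and 1.44 (SE 0.155), and Colgalt1, which adds galactose to hydroxylysine, by 1.03 (SE 0.0826) and 0.93 (SE 0.0820). P3h2, a prolyl 3-hydroxylase of basement membrane collagen, fell by 1.69 (SE 0.149) and 1.63 (SE 0.149). P4hb, the beta subunit that partners P4ha1, P4ha2 and P4ha3 and is also a general disulfide isomerase, was named after its values were seen. It averaged 702 ± 9.79 CPM in SMOC2_UUO (SD, n = 4) and 1143 ± 64.5 CPM in SMOC2_normal (SD, n = 3), and 626 ± 20.01 CPM in WT_UUO (SD, n = 4) and 970.1 ± 91.4 CPM in WT_normal (SD, n = 3), and fell under both labels (-0.70, adjusted p = 7.385e-06, and -0.63, adjusted p = 2.239e-05).

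Listed collagen, elastin and fibronectin genes rose after UUO as well, in a list chosen with earlier results of these data known. All 11 tested of 12 listed matrix genes rose under both labels, where 32.5% (SMOC2 label) and 31.3% (wild type) of all genes tested rose. The summed level of the list was 7741 to 9012 CPM in SMOC2_UUO, against 762 to 1162 CPM in SMOC2_normal, and 5789 to 9077 CPM in WT_UUO, against 917 to 1567 CPM in WT_normal libraries. Col5a2, a fibrillar collagen V chain, rose by 4.67 (SE 0.335) and 4.21 (SE 0.324) on the log2 scale. The collagen IV chains Col4a1 and Col4a2 of basement membranes rose less, by 2.28 (SE 0.174) and 1.81 (SE 0.170) and by 2.20 (SE 0.165) and 1.79 (SE 0.162), and Fn1, fibronectin, rose by 2.99 (SE 0.241) and 2.45 (SE 0.235). In each pair the SMOC2 comparison comes first.

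Of 16 listed genes of procollagen processing and lysyl oxidase activation, 15 were tested, and 7 rose and 1 fell under the SMOC2 label while 7 rose and 2 fell in wild type. Counting either direction, these shares are no higher than the 62.8% and 61.1% called among all genes tested. By direction, 32.5% of all genes tested rose and 30.4% fell under the SMOC2 label, and 31.3% rose and 29.8% fell in wild type. Rising genes were thus more common in the list than among all genes tested, and falling genes less common, which was not tested. The list's median log2 fold change was 0.72 (SMOC2 label) and 0.67 (wild type), against 0.04 and 0.05 over all genes tested. Bmp1, the protease that cleaves the propeptides of both procollagen and Lox, rose by 2.33 (SE 0.181) in SMOC2_UUO over SMOC2_normal and by 2.28 (SE 0.181) in WT_UUO over WT_normal. Efemp2, the fibulin that brings Lox to elastin, rose by 3.01 (SE 0.157) and 2.53 (SE 0.152), and Adamts2, an N-propeptidase of procollagen, by 4.06 (SE 0.299) and 3.23 (SE 0.281). Pcolce2, an enhancer of procollagen cleavage, fell by 1.92 (SE 0.170) and 1.73 (SE 0.171).

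The hypoxia-inducible factors in many cells induce Lox, Plod2, P4ha1 and P4ha2. Among 18 listed targets of these factors, 3 rose and 12 fell in SMOC2_UUO over SMOC2_normal, and 3 rose and 13 fell in WT_UUO over WT_normal. Of all genes tested, 32.5% rose and 30.4% fell in the first comparison, and 31.3% rose and 29.8% fell in the second. The part of these factors in the enzyme changes was not tested. Vegfa, the angiogenic growth factor, fell by 1.68 (SE 0.0998) and 1.34 (SE 0.0994) on the log2 scale, Bnip3, a mitophagy receptor, by 1.52 (SE 0.0963) and 1.36 (SE 0.0961), and Egln1, the oxygen-sensing prolyl hydroxylase, by 1.06 (SE 0.0732) and 0.97 (SE 0.0732). Hk2, a hexokinase, rose by 4.37 (SE 0.314) and 3.99 (SE 0.298). Of 14 genes of transforming growth factor beta signalling, 11 rose and 0 fell under each label. Tgfb1, the ligand, rose by 2.34 (SE 0.162) and 1.74 (SE 0.158), its receptor Tgfbr2 by 1.48 (SE 0.108) and 1.31 (SE 0.107), and Ltbp2, a latent TGF-beta binding protein family member of elastic fibres, by 7.16 (SE 0.594) and 6.99 (SE 0.606). In none of these 5 lists did edgeR call a gene between the genotype labels with all libraries. DESeq2 called 1 collagen folding gene lower and 1 transforming growth factor beta gene higher in SMOC2_UUO over WT_UUO, and edgeR called 1 collagen folding gene lower without SMOC2_UUO replicate 2.

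Cell type markers also changed after UUO, and their part in the result was not tested. Beside the counts that follow, 32.5% (SMOC2 label) and 31.3% (wild type) of all genes tested rose, and 30.4% and 29.8% fell. All 8 fibroblast markers rose under both labels, and their sum was 969 to 1186 CPM in SMOC2_UUO, against 117 to 231 CPM in SMOC2_normal, and 956 to 1226 CPM in WT_UUO, against 140.4 to 327 CPM in WT_normal libraries. Macrophage markers rose too, 7 of 8 under the SMOC2 label and 8 of 8 in wild type, with sums of 984 to 1262 CPM in SMOC2_UUO, against 196 to 256 CPM in SMOC2_normal, and 1051 to 1208 CPM in WT_UUO, against 190 to 234 CPM in WT_normal libraries. All 8 proximal tubule markers fell under both labels, as did all 7 markers of the loop and distal tubule. Of the other lists, 5 of 6 myofibroblast and smooth muscle markers rose under each label, injured tubule markers rose in 5 of 6 (SMOC2 label) and 6 of 6 (wild type), and collecting duct markers fell in 7 of 8 and 6 of 8. Under each label 1 collecting duct marker rose, and 0 did with the filter of 50 counts in 3 libraries. Endothelial markers divided, with 2 of 8 rising and 3 falling under the SMOC2 label and 0 rising and 3 falling in wild type, and 2 of 6 podocyte markers rose and 3 fell under each label. Of 6 urothelium markers 5 rose under each label, and 0 did with limma-voom. Every gene of the marker lists was detected in each group.

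**Figure D4:**
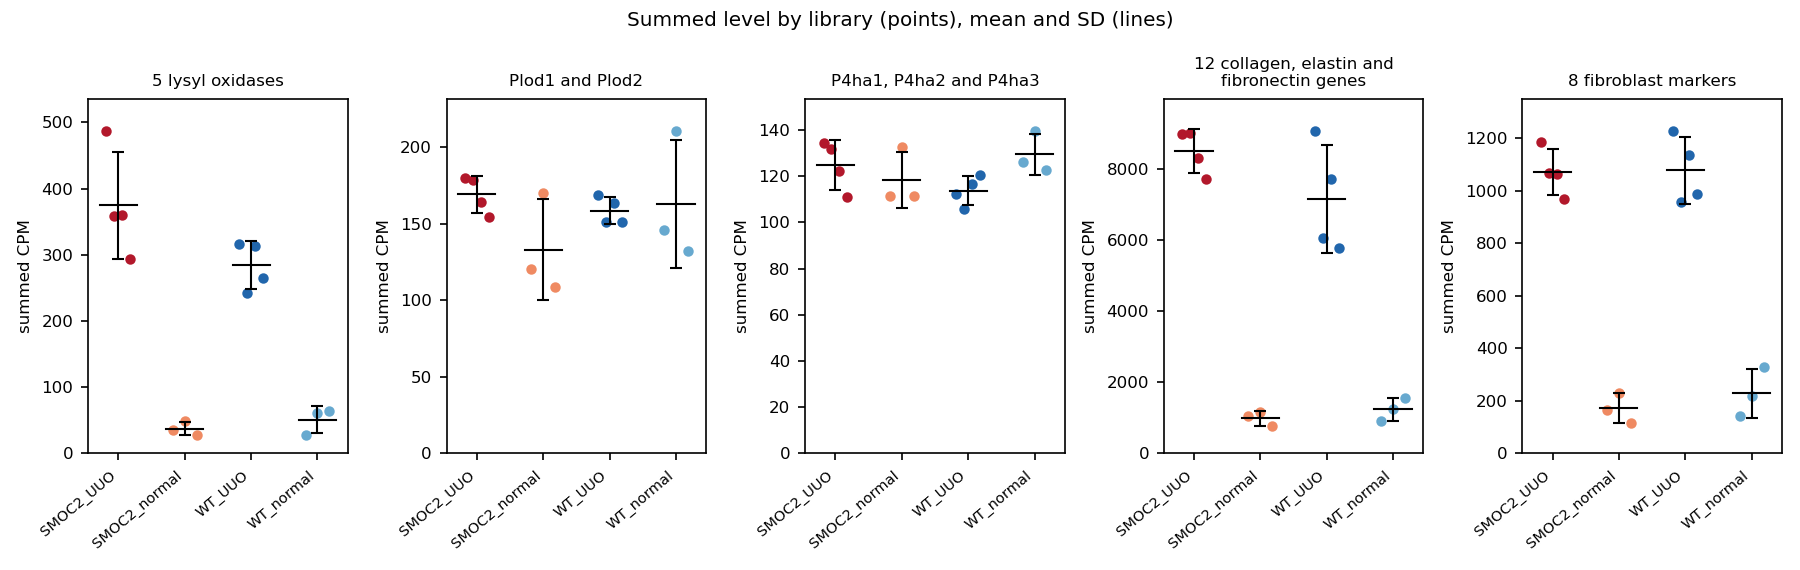
Summed CPM of gene lists (vertical axes, linear, each list on its own scale) in SMOC2_UUO, SMOC2_normal, WT_UUO and WT_normal libraries, with points for libraries and lines for the mean ± SD. The sums of the lysyl oxidases, of the collagen, elastin and fibronectin genes and of the fibroblast markers are higher in every UUO library than in any normal one.

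The genes whose pattern over the 14 libraries was most like each enzyme were found by the smallest mean absolute difference of centred log2 CPM among 13704 genes, as a description of these libraries. Lox was nearest to Rgs16, a regulator of G protein signalling (0.25), and Kif1a, a kinesin motor (0.251). Its nearest among the other enzymes was Loxl2 (0.77). The other enzymes are a far smaller set to search, so the nearest of them tends to lie farther away for every gene. Loxl1 was nearest to Tmem273 (0.265) and Dennd2a (0.293), Loxl2 to the metalloprotease Adam19 (0.164) and fibrillin Fbn1 (0.182), and Loxl3 to the collagen-binding matrix protein Sparc (0.116) and the thrombin receptor F2r (0.144). Loxl2 and Loxl3 were each other's nearest enzyme (0.337), and Loxl1 was nearest to Loxl3 (0.347).

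P4ha1 was nearest to Mrrf (0.0654) and Sec13, a coat protein of endoplasmic reticulum vesicles (0.0730), P4ha2 to Eml4 (0.104) and the kinase Fyn (0.107), and Plod1 to Phf21a (0.0700) and Dusp22 (0.0769). Plod1 and P4ha2 were each other's nearest enzyme (0.191). Plod2 was nearest to Srprb (0.162) and Nkrf (0.165), Loxl4 to Zfp867 (0.238) and Sept7 (0.240), and P4ha3 to Wnt10a (0.565) and Pheta2 (0.576), the loosest match of the 10.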

How the data were processed

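Messenger RNA of whole mouse kidney was sequenced in 14 libraries. Per the submitters' processing notes, STAR 2.4.1d, featureCounts 1.4.4 and build mm10 were used; annotation and strand setting: not given in the sources used here. Raw counts were deposited for each gene, without normalization by the authors. Of 47729 identifiers, 47310 matched GENCODE M21, which gave symbols, positions and exon lengths. In R 4.3.3, edgeR 4.0.16 kept 17926 genes (filterByExpr), scaled libraries by trimmed mean of M-values, fitted 1 mean per group to all 14 libraries and tested 5 comparisons by quasi-likelihood. Replicate numbers did not pair libraries, so no block was used. Alternatives were other scalings, no filter, a filter of 50 counts in 3 libraries, DESeq2 1.42.0, limma-voom (limma 3.58.1), a replicate block, only the compared groups, the longest transcript as length, and each library left out. The enzymes and lists were chosen with earlier results of these data known. Named genes are the 10 enzymes, Smoc2, up to 4 per list with the smallest p in either UUO comparison, and the most similar genes among those with an established symbol and a mean of at least 1 CPM (prior count 2). The fit was tested on simulated data.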

Additional observations from a re-analysis of the deposited data

Results flagged for a closer look

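Smoc2 in the SMOC2_UUO libraries had 1 value far from the others. Replicate 1 was at 124 CPM and the nearest other library at 89.9 CPM, a gap of 0.849 of the group's whole range. This was 1 flag among 40 groups of 4 libraries examined, and chance flags about 1 in 20 such groups. The same replicate had the highest Lox, Loxl1 and P4ha3 levels of its group and, by a small margin, the highest Plod1 and P4ha2 levels. The remaining enzymes were highest in other replicates.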

How the results depend on the processing

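Each count of enzyme genes changed, by comparison and direction, was set against its value in each alternative, which gave 218 pairs. In all 218 the count stayed within 1.5 times its reported value or, where that was 0, stayed at 0. Both genotype comparisons and the interaction gave 0 throughout. Of 1198 values of single genes over the alternatives, 1160 kept direction and side of the threshold. The Plod2 log2 fold change in SMOC2_UUO over WT_UUO turned to 0.00099 with relative log expression scaling and 0.0014 with DESeq2. The Loxl3 share lost its call with the longest transcript as length (-1.71 percentage points, exact permutation, adjusted p = 0.0535). Leaving out 1 library gave these ranges: Loxl4 -0.17 to 0.55 and Plod2 -0.46 to 0.16 in WT_UUO over WT_normal; Lox -0.058 to 0.21, Loxl2 -0.014 to 0.12 and Plod2 -0.065 to 0.059 in SMOC2_UUO over WT_UUO; Lox -0.11 to 0.43, Plod1 -0.18 to 0.011, P4ha3 -2.75 to 0.38 and Smoc2 -0.55 to 0.43 in SMOC2_normal over WT_normal; and Lox -0.34 to 0.20 in the interaction. Shares ranged over 1.14 to 4.62 (Loxl2), -2.05 to -1.05 (Loxl3) and -6.89 to -2.16 (Plod2) percentage points. The cause was not tested. Over all genes, SMOC2_UUO over WT_UUO gave 100 higher and 49 lower genes, against 492 and 265 with DESeq2, 147 and 85 with limma-voom, 45 and 24 with the replicate block and 29 and 10 with only those libraries; it fell to 50 and 21, 18 and 11 or 30 and 15 without SMOC2_UUO replicate 1, 2 or 3, and to 35 and 29, 44 and 26 or 41 and 22 without WT_UUO replicate 1, 3 or 4. SMOC2_normal over WT_normal gave 4 and 1, against 109 and 65 with DESeq2, 9 and 3 without a filter, 8 and 1 with limma-voom, 12 and 9 without SMOC2_normal replicate 1, 7 and 4 or 6 and 2 without WT_normal replicate 2 or 3 and 7 and 1 without WT_UUO replicate 1, and the interaction gave 0 and 0, against 10 and 15 with DESeq2. Correlations of deviations between same-numbered libraries ran from -0.0898 to 0.132, and 4 of 14 libraries correlated best with their own number. With the replicate block 8 enzyme genes were higher and 1 lower in SMOC2_UUO over SMOC2_normal, and 7 higher and 1 lower in WT_UUO over WT_normal, where Plod1 (0.24, adjusted p = 0.0278) was added. Depth limits P4ha3, with 0 to 80 counts a library.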

Other observations

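Paralogues of collagen-modifying enzymes divided in some other families of the endoplasmic reticulum, in genes named after their values were seen. Of the galactosyltransferases that act on hydroxylysine, Colgalt1 rose by 1.03 and 0.93 on the log2 scale in SMOC2_UUO over SMOC2_normal and WT_UUO over WT_normal, while Colgalt2 fell by 1.39 (SE 0.323, edgeR adjusted p = 0.0018) and 1.01 (SE 0.313, edgeR adjusted p = 0.0122). Of the prolyl 3-hydroxylases, P3h1 rose by 0.87 (SE 0.0887) and 0.80 (SE 0.0883) and P3h3 by 1.499 (SE 0.187) and 1.30 (SE 0.184), while P3h2 fell by 1.69 and 1.63. In these families neither direction was shared by all members, as with P4ha1, P4ha2 and P4ha3. The lysyl hydroxylases did not divide in this way, as none of Plod1, Plod2 and Plod3 fell at the threshold under either label. Both directions were common among all genes tested, with 32.5% rising and 30.4% falling under the SMOC2 label. In wild type 31.3% rose and 29.8% fell. No explanation was tested.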
